A study of Mus musculus with 16 samples.

Results

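XCR1+ mature dendritic cells (DCs) of the liver-draining lymph node (LN) were examined in 3 CITE-seq libraries, in which RNA and antibody tags were counted in the same cells. The cells were selected on measured values. A barcode counted as a cell when it had no fewer than 1000 RNA UMIs and 500 genes and no more than 10% of its UMIs were mitochondrial, and as a mature DC when it held at least 1 UMI of Ccr7, at least 1 of Fscn1 and none of Cd3e or Cd79a. A mature DC was XCR1+ when the XCR1 antibody supplied at least 10% of its antibody tag UMIs. By this rule 283 of 1668 mature DCs were XCR1+, out of 19543 cells in the 3 libraries and 53595 cells in the whole series. They were compared with the other 1385 mature DCs, which fell below that XCR1 share.

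All groups came from young adult male C57BL/6J mice. D0 was the LN of mice on normal chow, and D5 and D19 were LNs after 5 and 19 days of chow that carried DDC at 0.1%, a feed additive that causes cholestasis (DDC is short for 3,5-diethoxycarbonyl-1,4-dihydrocollidine). For the D5 library the title gives day 5, but the description gives day 6. Hepatoduodenal and celiac nodes were pooled, digested with Collagenase D and sorted into fractions that were mixed in equal parts, so the abundance of a cell type in a library is not its abundance in the node. Each day was 1 library, and the number of mice behind it is not given in the sources used here. No test between days was therefore possible. The tag measurement was made because DCs lose the RNA of their lineage markers as they mature, and it asked which lineage a mature DC came from.

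Conventional DCs of type 1 (cDC1) take up dead cells and present their antigens on MHC class I to CD8 T cells, and they carry the chemokine receptor XCR1 at their surface. Type 2 cells (cDC2) carry CD11b and SIRPα, and some of them CD301b, and are better known for presentation on MHC class II to CD4 T cells. On maturation both types switch on CCR7, which guides them along lymph to the T cell zone, and the actin-bundling protein fascin (Fscn1), while genes that mark the resting lineages are turned down.

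The rule rests on a 15-base antibody barcode read beside the RNA, so the barcodes of the 4 antibodies that divide mature DCs by lineage are shown, 5′ to 3′, as given in the deposited feature tables, with all bases in capitals because the whole barcode is matched.
XCR1: TCCATTACCCACGTT
CD8a: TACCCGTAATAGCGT
CD11b: TGAAGGCTCATTTGT
CD301b: CTTGCCTTGCGATTT
Compared base by base, the barcodes of CD8a and CD11b differed from that of XCR1 at 11 positions each and that of CD301b at 12.

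RNA totals of the D0, D5 and D19 libraries were 45317389, 47653941 and 32013882 UMIs, with medians of 4945.5, 4931.5 and 3333 UMIs per cell. Between 9 and 12 barcodes were shared by any pair of libraries. The XCR1+ mature DCs together held 338457, 408752 and 874282 RNA UMIs at D0, D5 and D19, and the other mature DCs 1958566, 3464014 and 3610303. Depth per cell did not run the same way on each day: the median XCR1+ mature DC had 4003, 8182.5 and 4991 RNA UMIs, against 7386, 7801.5 and 4316.5 in the other mature DCs. Antibody tags were fewer in XCR1+ mature DCs on every day, with medians of 383, 406.5 and 189 tag UMIs against 820, 1299.5 and 667.5. All intervals given here are 95% intervals for counting error only. The limit given beside a count of 0 cells is 3 counts of the total, which is tighter than the upper bound of the exact interval (5.60% for 0 of 64 and 6.85% for 0 of 52). Limits in CPM beside 0 UMIs are the upper bounds of exact Poisson intervals.

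XCR1+ cells were 64 of 297 mature DCs at D0, 52 of 456 at D5 and 167 of 915 at D19. These counts gave shares of 21.5% (exact interval 17.0 to 26.7%), 11.4% (8.63 to 14.7%) and 18.3% (15.8 to 20.9%). The D5 share lay below the other two and its interval did not reach theirs, but each share came from 1 library. With the XCR1 threshold at 20% of tag UMIs the shares were 11.8%, 7.24% and 11.9%, again lowest at D5, but the interval at D5 (5.03 to 10%) then met that at D0 (8.35 to 16%) and that at D19 (9.88 to 14.2%). The intervals at D5 and D19 also met with the threshold at 5%. Leaving out barcodes with a UMI of Siglech, Trac, Trbc2, Cd79b or Ms4a1, genes of other cell types, gave 26.0%, 14.3% and 18.4%, and the intervals at D5 (10.5 to 18.9%) and D19 (15.8 to 21.3%) met here as well.

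The number of XCR1+ cells was 75, 73 and 200 at D0, D5 and D19 with the threshold at 5% of tag UMIs. At 20% it was 35, 33 and 109. Mature DCs lay close to the 10% threshold on both sides. Just outside it, from 8% to 10%, lay 6, 12 and 15 mature DCs at D0, D5 and D19. Just inside, from 10% to 12%, lay 7, 3 and 19. The nearest cells below had shares of 9.89%, 9.68% and 9.82%, and the nearest above 10.2%, 10.1% and 10.2%. The same 10% threshold was passed by 3 of 2031, 2 of 1288 and 6 of 1444 T cells, taken as cells with at least 2 UMIs of Cd3e. It was passed by 31 of 2302, 66 of 3470 and 42 of 2156 B cells, whose median tag count was only 70, 64 and 30 UMIs. A caller of doublets (Scrublet) placed 0, 1 and 2 XCR1+ mature DCs and 25, 18 and 35 other mature DCs among the highest scores of their libraries.

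The RNA bore out the name of mature DC beyond the 2 genes used to select the cells. Ccr7 itself, one of the genes of the rule, stood at 2520.3 CPM at D0, 1673 at D5 and 2139 at D19 in XCR1+ mature DCs, where CPM is the UMIs of a gene in every 1000000 UMIs of the group. Socs2, a feedback inhibitor of cytokine receptors, was at 455 CPM at D0, 572 at D5 and 506 at D19, and had no UMI in resident cDC1, taken here as XCR1+ cells with a Clec9a UMI and without Ccr7 or Fscn1 (51, 7 and 26 cells). Relb, the NF-κB subunit of DC maturation, was at 804, 844 and 589 CPM in XCR1+ mature DCs and 25.9, 82.1 and 25.4 in resident cDC1. Summed over the 15 maturation genes listed, the median XCR1+ mature DC spent 1.03%, 1.18% and 1.24% of its UMIs on them at the 3 days, against 0.0910%, 0.0796% and 0.0811% in the median resident cDC1. Since Ccr7 and Fscn1 divided these groups, the last comparison is a description with no test.

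The surface tags of XCR1+ mature DCs set them apart from the other mature DCs in more than XCR1. Shares are a description with no test, because XCR1 chose the cells and all tags share 1 total. The median XCR1 share, fixed by the rule, was 21.0%, 23.5% and 24.4% of tag UMIs at D0, D5 and D19, against 0.263%, 0.267% and 0.152% in the other mature DCs. Barcodes with 10 to 100 RNA UMIs, called empty here and taken to hold tags free in solution, had 1.85%, 2.36% and 1.77%. Whether some of them also held small or broken cells was not tested.

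CD11b, the integrin that marks cDC2 and myeloid cells, took a median of 4.05%, 8.88% and 8.70% of the tags of XCR1+ mature DCs. In the other mature DCs it took 46.7%, 55.6% and 64.9%, and in empty barcodes 6.85%, 7.46% and 6.59%. The 75th percentiles of the XCR1+ cells (6.54%, 19.1% and 15.0%) stayed below the 25th percentiles of the other mature DCs (22.2%, 23.0% and 46.7%). A CD11b share of 30% or more occurred in 0 of 64, 4 of 52 and 13 of 167 XCR1+ mature DCs, and 0 of 64 allows a share of up to 4.69%. CD301b, the lectin encoded by Mgl2, reached 10% of tags in 0 of 64, 0 of 52 (allowing up to 5.77%) and 1 of 167 XCR1+ mature DCs and in 34 of 233, 48 of 404 and 246 of 748 other mature DCs. XCR1 and CD301b thus both reached 10% in 1 of 283 XCR1+ cells. CD11b reached 10% in 12 of 64, 24 of 52 and 72 of 167 XCR1+ mature DCs. In the other mature DCs it did so in 195 of 233, 348 of 404 and 709 of 748.

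CD8a, carried by lymphoid-resident cDC1, was the largest tag of the XCR1+ mature DCs at D0. Its median share was 42.7% at D0, 24.6% at D5 and 20.8% at D19, against 8.48%, 6.39% and 2.79% in the other mature DCs and 68.2%, 37.1% and 59.4% in resident cDC1. Free tags were also rich in CD8a, at 36.9%, 24.2% and 22.1%, and B cells, which lack CD8a, had medians of 25.0%, 20.7% and 14.3% at a lower tag depth. A share of all tags does not give the level of free tags on a cell. CD115, a receptor of macrophages, took 0.588%, 0.538% and 1.12% of the pooled tags of XCR1+ mature DCs and 5.48%, 5.12% and 16.8% of free tags. The part of free tags in the CD8a share was not tested. CD80, a ligand of CD28, took medians of 13.6%, 18.8% and 20.4% against 9.22%, 11.6% and 7.84% in the other mature DCs and 22.3%, 24.1% and 28.1% of free tags. The XCR1 tags of the selected cells lower their other shares. With XCR1 left out of the total, their CD80 medians were 17.4%, 23.6% and 28.9% against 9.29%, 11.6% and 7.88%. Their CD8a medians were then 56.0%, 31.7% and 29.0% against 8.48%, 6.43% and 2.80%. In UMIs the CD8a medians were 155, 86.5 and 37 in XCR1+ mature DCs against 65, 87.5 and 19 in the other mature DCs. At D5 the CD8a UMIs were thus close to equal, and only the shares differed. In UMIs CD80 was lower in XCR1+ mature DCs, with medians of 47, 82.5 and 30 against 78, 151 and 52. Per 1000 RNA UMIs the CD80 medians were 12.0, 11.9 and 7.52 against 9.80, 19.1 and 11.4. CD197, the CCR7 protein, was faint in all cells, with medians of 0.847%, 1.63% and 1.09% in XCR1+ mature DCs and 0.424%, 0.379% and 0.322% in the other mature DCs, under the 1.98%, 2.51% and 2.10% of free tags. In UMIs the CD197 medians were 4, 7 and 2 against 4, 6 and 2.

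**Figure D1:**
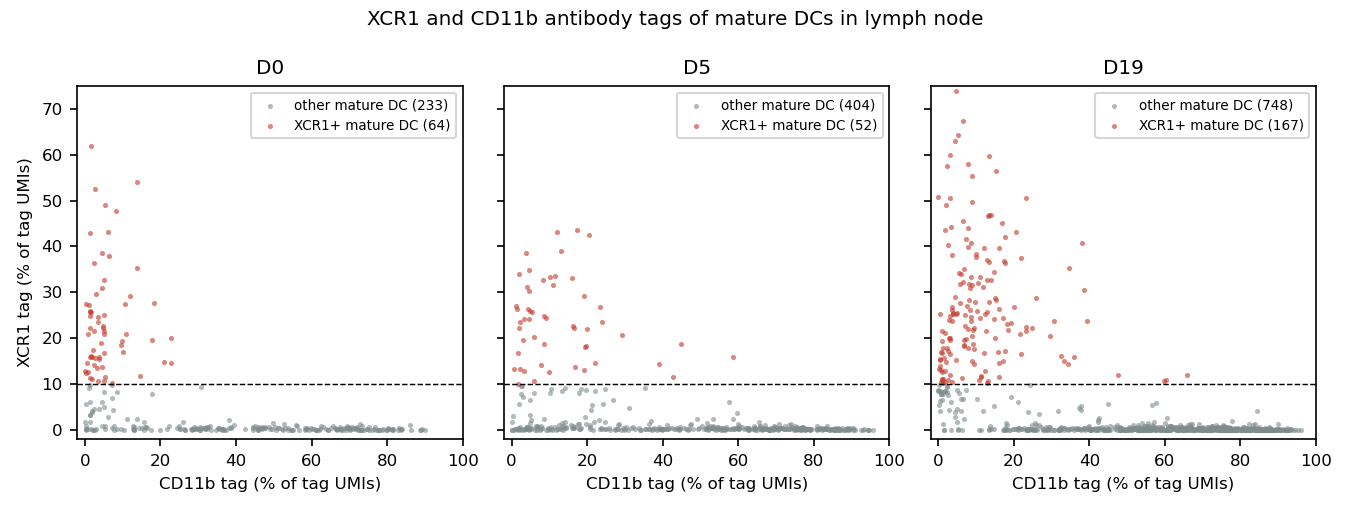
XCR1 against CD11b antibody tags in single mature DCs of LN, both axes in percent of a cell's tag UMIs, 1 panel per day. Each point is a cell, and the dashed line is the 10% XCR1 threshold that selected the 64, 52 and 167 XCR1+ cells. The XCR1+ cells lie at low CD11b (medians 4.05%, 8.88% and 8.70%), whereas the other mature DCs spread to high CD11b (46.7%, 55.6% and 64.9%).

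Whereas XCR1 protein was present by selection, Xcr1 RNA was low. Xcr1 (GRCm38 chr9:123852315-123862029) stood at 14.8 CPM at D0, 2.45 at D5 and 19.4 at D19 in XCR1+ mature DCs, 9.70, 2.31 and 1.94 in the other mature DCs and 495, 246 and 352 in resident cDC1. A UMI of Xcr1 was found in 2 of 64, 1 of 52 and 6 of 167 XCR1+ mature DCs, in 5 of 233, 5 of 404 and 5 of 748 other mature DCs and in 48 of 51, 6 of 7 and 21 of 26 resident cDC1. Resident cDC1 were deeper (medians of 15215, 15117 and 8742.5 UMIs), and with every cell thinned to 1000 UMIs the counts were 0 of 64 (allowing up to 4.69%), 0 of 52 (up to 5.77%) and 3 of 167 against 16 of 51, 2 of 7 and 8 of 26. These limits are of cells with a UMI at that depth, not of cells expressing the gene. T cells, which should lack the gene, had a UMI in 23 of 2031, 5 of 1288 and 7 of 1444 cells at median depths of 6016, 6934.5 and 4254 UMIs. The counts in XCR1+ mature DCs at D0 and D5 rested on so few cells that they were not separable from this background. In the fit against the other mature DCs described next, Xcr1 was 1.99 ± 0.59 (SE, adjusted p = 0.036) higher on the log2 scale by edgeR. That call was made in 5 of the 9 alternatives that tested the gene and not without D19, and the library values of both groups overlapped.

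The RNA of XCR1+ mature DCs was compared with that of the other mature DCs by edgeR's quasi-likelihood test on UMIs summed per library and group, with the library as a block (3 libraries, 2 residual degrees of freedom). The antibody threshold divided the groups, and RNA was not used in that division. Of 7521 genes tested, 554 were higher in XCR1+ mature DCs (7.37%) and 453 were lower (6.02%) at an adjusted p under 0.05. The median log2 fold change over all genes tested was -0.03. Without scaling beyond the total count the split was 346 higher and 822 lower, with a median of -0.25, so the balance of directions depends on the scaling. Of the 1007 genes called, 984 moved the same way in all 3 libraries and 792 had library values that did not overlap between the groups. The calls rest on these same values, so these counts add no separate support. Neither count was made over all 7521 genes tested. The replicates of this contrast are the 3 libraries, so its spread includes any difference between days.

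The genes with the largest differences in favour of XCR1+ mature DCs were led by Oasl1, an interferon-inducible relative of the oligoadenylate synthetases. Oasl1 was at 32.5 CPM at D0, 29.4 at D5 and 25.2 at D19 in XCR1+ mature DCs and at 3.57, 2.89 and 0.277 in the other mature DCs, a log2 fold change of 4.11 ± 0.51 (SE, adjusted p = 9.1e-05). Bcl2l14, a member of the Bcl-2 family, was at 390, 252 and 446 CPM against 38.8, 31.8 and 62.0, or 3.26 ± 0.20 (SE, adjusted p = 2.6e-07). Txndc17, a thioredoxin-like protein, was the most abundant by CPM of these 10 genes in XCR1+ mature DCs at D0, D5 and D19, at 2399, 1651 and 1761 against 266, 267 and 425 (log2 fold change 2.84, SE 0.22, adjusted p = 1.3e-06). Cd81, a tetraspanin of the cell surface, was at 411, 279 and 299 CPM against 59.7, 51.4 and 58.7, or 2.74 ± 0.19 (SE, adjusted p = 5.9e-07). Laptm4b, a protein of the lysosomal membrane, was at 236, 159 and 143 CPM against 22.5, 25.1 and 24.9 and was higher by 3.05.

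Fgfbp3, a carrier of fibroblast growth factors, stood at 62.0, 66.1 and 57.2 CPM in XCR1+ mature DCs and 10.2, 4.62 and 6.09 in the others, Zdhhc14, a palmitoyltransferase, at 76.8, 70.9 and 46.9 and 7.66, 10.7 and 5.54, and Mab21l3 at 41.4, 36.7 and 56.0 and 6.64, 2.31 and 8.03. Ttc39a, at 139, 135 and 75.5 CPM against 19.9, 25.7 and 13.8, and Gpr141b, an orphan receptor, at 17.7, 14.7 and 33.2 against 3.06, 1.73 and 3.88, completed the 10. Their log2 fold changes were 3.44, 3.23, 3.23, 2.76 and 3.13 in that order, and the highest adjusted p of the 10 genes was 2.5e-04, for Gpr141b. Gpr141b was also high in resident cDC1 (144, 174 and 220.4 CPM), in contrast to Fgfbp3 (1.36, 0 and 4.24) and Zdhhc14 (0, 0 and 4.24). All 10 were called in every alternative that tested them.

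Cfp, which encodes the complement factor properdin, was among the 10 genes named as furthest below the other mature DCs. It had no UMI in any XCR1+ mature DC (exact upper limits of 10.9, 9.02 and 4.22 CPM). In the other mature DCs Cfp stood at 106 CPM at D0, 23.1 at D5 and 10.2 at D19 (adjusted p = 1.2e-04 by edgeR). There 208 of its 325 UMIs came from the D0 library. Lyz2, the lysozyme of monocytes and macrophages, was at 11.8, 4.89 and 4.58 CPM in XCR1+ mature DCs and 262, 154 and 82.3 in the others, a log2 fold change of -4.23 ± 0.31 (SE, adjusted p = 6.2e-07). Cybb, the membrane subunit of the phagocyte NADPH oxidase, was at 0, 2.45 and 14.9 against 131, 158 and 143 CPM (log2 fold change -3.97, SE 0.39, adjusted p = 9.0e-06).

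Ms4a6c and Ms4a4c, membrane proteins of 1 family, were lower, with log2 fold changes of -5.16 and -4.30. Fabp4, a fatty acid binding protein, was at 0, 0 and 2.29 CPM against 36.3, 63.2 and 48.5, and Dkk2, an inhibitor of Wnt signalling, at 0, 2.45 and 1.14 against 9.19, 66.4 and 54.8. Gda, guanine deaminase, Ifitm1, an interferon-inducible membrane protein, and Nrgn, which binds calmodulin, completed the list with log2 fold changes of -5.36, -4.42 and -4.10. Members near 0 UMIs make these fitted values dependent on the prior count, and they are no bounds. Cfp was not called without the library block, nor Nrgn by DESeq2. RNA free in solution was present as well, at 314, 146 and 137 CPM for Lyz2 in empty barcodes. It made up an estimated 5.04%, 2.71% and 3.71% of the UMIs of XCR1+ mature DCs and 12.7%, 9.36% and 8.92% of those of the other mature DCs. The estimate is the share of T cell, B cell, NK cell, neutrophil and stromal genes in a group, divided by their share in empty barcodes. It counts all UMIs of these genes as free RNA, so doublets or other cells in a group raise it. The part of free RNA in the lower genes was not tested.

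Of 12 cDC1 genes tested, 6 were higher in XCR1+ mature DCs and 0 lower, with a median log2 fold change of 0.66 against -0.03 over all genes. Xcr1, whose protein was used to select the cells and whose call was lost without D19, is 1 of the 6. Clec9a (GRCm38 chr6:129408862-129424764), the receptor for exposed actin of dead cells, was at 20.7 CPM at D0, 31.8 at D5 and 19.4 at D19 in XCR1+ mature DCs, against 7.66, 6.64 and 3.60 in the other mature DCs (log2 fold change 2.31, SE 0.39, adjusted p = 1.0e-03). Resident cDC1, for which Clec9a was part of the selection, stood at 244, 195 and 250.1. The level in XCR1+ mature DCs was thus above the other mature DCs in every library and far below the resident cells. Irf8, the transcription factor that cDC1 depend on, was at 514, 228 and 242 CPM against 289, 206 and 144 (log2 fold change 0.82, SE 0.18, adjusted p = 0.0072) and 1273, 1252 and 1047 in resident cDC1. Cd24a was higher by 1.20, Cd36, a scavenger receptor, by 1.89, and Id2, an inhibitor of helix-loop-helix factors that cDC1 need, by 0.59. Batf3, another factor of the lineage, did not pass (207, 245 and 221 CPM against 286, 287 and 251, log2 fold change -0.06 ± 0.17 (SE, adjusted p = 0.88)), and neither did Cd8a (-1.02), Cadm1 (0.73) or Wdfy4 (-0.30), a gene of cross-presentation. Without the D19 library the list had 4 higher and 3 lower genes and a median of -0.07, and without D0 or D5 it had 4 and 3 higher and 0 lower. Irf8 was not called without D0, Cd24a and Id2 not without D5, and Cd36 not without D5 or D19.

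Of 18 cDC2 genes, 9 were tested, of which 8 were lower in XCR1+ mature DCs and 0 higher (median -1.55). Zeb2, a repressor active in cDC2 and myeloid cells, was at 2.95 CPM at D0, 14.7 at D5 and 6.86 at D19 in XCR1+ mature DCs and 122, 185 and 117 in the others (log2 fold change -3.87, SE 0.31, adjusted p = 1.3e-06). Sirpa was at 0, 4.89 and 3.43 CPM against 50, 42.7 and 30.5 (-3.38), and S100a4, a calcium-binding protein, at 121, 927 and 393 against 1499, 3004 and 2071 (-2.24). Klf4 (-1.55), Cd7 (-1.40), Epcam (-3.40), Tmem176a (-0.59) and Tmem176b (-0.86) were also lower, and Irf4, the factor of cDC2, missed the threshold at -0.87 ± 0.33 (SE, adjusted p = 0.10). Among genes too low to be tested, Itgam, Mgl2, Csf1r, Cx3cr1, Clec4a1, Clec4a2 and Clec4a4 had no UMI in any XCR1+ mature DC. Itgam, which encodes CD11b, and Mgl2, which encodes CD301b, were low in the other mature DCs as well, at 7.15, 2.31 and 4.43 CPM for Itgam and 2.55, 2.31 and 1.94 for Mgl2. Cd7 and Epcam were not called without D0 or D5, nor Tmem176a without D5. With D5 left out 5 genes of the list were lower.

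**Figure D2:**
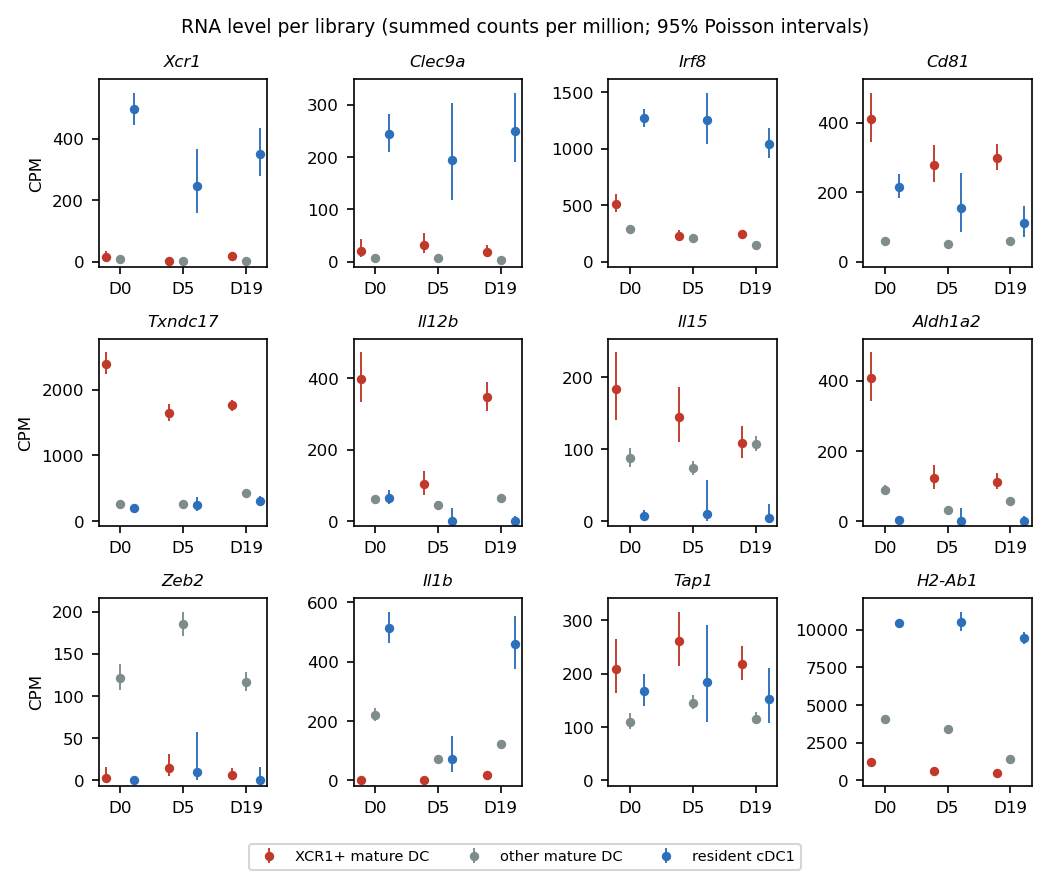
RNA level of 12 genes in CPM, with 95% Poisson intervals for counting error, at D0, D5 and D19 in XCR1+ mature DCs, other mature DCs and resident cDC1. Xcr1 and Clec9a are highest in resident cDC1 (Xcr1 495, 246 and 352 CPM), which were selected by the XCR1 tag and a Clec9a UMI, Cd81 and Txndc17 in XCR1+ mature DCs (Txndc17 2399, 1651 and 1761), and Zeb2 in the other mature DCs (122, 185 and 117).

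Genes of presentation on MHC class I were higher in XCR1+ mature DCs, and those of MHC class II were lower. Of 13 MHC class I genes tested, 11 were higher and 0 lower, with a median log2 fold change of 0.84. Of 12 MHC class II genes, 8 were lower and 0 higher, with a median of -1.20. Without scaling beyond the total the first list had 11 higher and 0 lower genes and a median of 0.60. Over all alternatives 4 to 12 MHC class I genes were higher and 6 to 11 MHC class II genes were lower. Without D0, D5 or D19 the class I list had 7, 5 and 12 higher genes, and against CD301b+ mature DCs only it had 6.

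Within the class I pathway, peptides are cut by the immunoproteasome, carried into the endoplasmic reticulum by TAP and loaded with the help of tapasin. Tap1, 1 chain of that transporter, was at 209.8 CPM at D0, 262 at D5 and 218 at D19 in XCR1+ mature DCs and 110.3, 146 and 116 in the others (log2 fold change 1.12, SE 0.17, adjusted p = 5.0e-04). Psme1 and Psme2, which form the activator of the proteasome, were higher by 1.05 and 1.19, and Tapbp, which encodes tapasin, by 0.96. Nlrc5, the transactivator of class I genes, was at 44.3, 85.6 and 89.2 CPM against 30.1, 42.7 and 38.5 (log2 fold change 1.21, SE 0.21, adjusted p = 0.0013).

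The immunoproteasome subunits Psmb8, Psmb9 and Psmb10 were higher by 0.71, 0.84 and 0.65, and Tap2 by 0.94. The heavy chains H2-K1 (3912, 3951 and 2561 CPM against 2448, 2819.6 and 2101) and H2-D1 (4196, 3912 and 2776 against 2956, 2997 and 2454) were higher by 0.72 and 0.59. Their light chain B2m fell just outside the threshold at 0.56 (adjusted p = 0.0501), and Erap1, which trims peptides, stood at 0.14. H2-K1, H2-D1, Psmb8 and Psmb9 were not called without D0 or without D5, nor Psmb10 and Tap2 without D5. Per cell, the median XCR1+ mature DC gave 2.52%, 2.22% and 1.67% of its UMIs to the class I list, against 1.49%, 1.53% and 1.43% in the other mature DCs, a gap that was narrowest at D19.

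Class II genes ran the other way. H2-Ab1, the β chain of I-A, was at 1238 CPM at D0, 631 at D5 and 516 at D19 in XCR1+ mature DCs and 4068, 3380.2 and 1449 in the other mature DCs (log2 fold change -1.64, SE 0.19, adjusted p = 3.7e-05). At D0 1 cell held much of it, and without that cell the level was 783 CPM. H2-Aa (-1.17), H2-Eb1 (-1.24) and the invariant chain Cd74 (-0.92) were also lower. Ciita (GRCm38 chr16:10480014-10531064), the transactivator of class II genes, was at 2.95, 0 and 12.6 CPM against 109, 89.5 and 19.7 (log2 fold change -2.62, SE 0.57, adjusted p = 0.0061). H2-DMb2, part of the peptide editor H2-M, had a log2 fold change of -2.77, H2-DMa of -1.44 and H2-Oa of -1.78, whereas Ctss and Ifi30, a protease and a reductase of the endosome, did not pass (-0.33 and 0.19). The call was lost for Cd74 without D5 and for Ciita without D0. The median share of UMIs on the class II list was 1.06%, 0.597% and 0.391% in XCR1+ mature DCs, 3.12%, 2.05% and 0.548% in the others and 5.72%, 5.18% and 5.16% in resident cDC1.

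Among 7 cytokine genes tested, 3 were higher and 2 lower in XCR1+ mature DCs. Il12b (GRCm38 chr11:44400063-44414677), the p40 chain shared by IL-12 and IL-23, was at 399 CPM at D0, 103 at D5 and 347 at D19 against 60.8, 44.7 and 63.7 in the other mature DCs, and was higher by 2.41 ± 0.25 (SE, adjusted p = 1.4e-05). That call was made in all 19 alternatives. At D0 61.5% of its UMIs came from 1 cell, without which the level was 159 CPM. A UMI of Il12b was found in 11 of 64, 15 of 52 and 65 of 167 XCR1+ mature DCs, 24 of 233, 33 of 404 and 72 of 748 other mature DCs and 6 of 2031, 6 of 1288 and 23 of 1444 T cells. Thinned to 1000 UMIs the counts of Il12b were 3 of 64, 4 of 52 and 26 of 167 against 5 of 233, 8 of 404 and 25 of 748. The share of XCR1+ cells with a UMI was thus the higher one in each library at both depths. The intervals of the thinned shares were apart at D19 (10.4 to 22% against 2.17 to 4.89%) and met at D0 and D5. The p35 chain Il12a and the IL-23 chain Il23a were at or near 0 in both groups, at 0, 0 and 3.43 CPM for Il12a and 0 throughout for Il23a in XCR1+ mature DCs.

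Il15, which sustains CD8 T cells and NK cells, was at 183 CPM at D0, 144 at D5 and 109 at D19 in XCR1+ mature DCs and 87.8, 73.6 and 108 in the others (log2 fold change 0.88, SE 0.23, adjusted p = 0.021). Its presenting receptor chain Il15ra was at 94.5, 220.2 and 288 CPM against 64.8, 83.4 and 156 (log2 fold change 1.19, SE 0.20, adjusted p = 8.7e-04). Ligand and receptor chain were both higher in each library, by a small margin for Il15 at D19. The call of Il15 was lost without D0, without D5 and without scaling. Il1b, a cytokine of inflammation, was at 0, 2.45 and 17.2 CPM against 222, 72.2 and 122 (log2 fold change -3.61, SE 0.42, adjusted p = 4.2e-05), and Ltb, a lymphotoxin chain, had a log2 fold change of -1.84. Tnf did not pass (log2 fold change -0.46, SE 0.36, adjusted p = 0.48).

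Chemokine genes were higher in 2 cases and lower in 6 of 10 tested (median -1.18). Ccl5, a chemokine that draws T cells, was at 12173 CPM at D0, 14924 at D5 and 14247 at D19 in XCR1+ mature DCs and 7927, 6176 and 9975 in the others (log2 fold change 1.03, SE 0.19, adjusted p = 0.0018), a call lost without the D5 library. Ccl19, which encodes a ligand of CCR7, was higher by 1.51 at a low level (38.4, 36.7 and 14.9 CPM against 13.3, 10.4 and 10.2). Lower were Cxcl9 (-2.41) and Cxcl10 (-3.39), ligands of CXCR3, Ccl3 (-3.69) and Ccl4 (-1.37), inflammatory chemokines of the CC family, Cxcl2 (-2.81), which draws neutrophils, and Ccl17 (-0.99), a ligand of CCR4. The list depended on the setting, with 3 genes lower and a median of -0.11 at an XCR1 share of 5%, 2 lower and a median of -0.21 against CD301b+ mature DCs only, and 2 lower by DESeq2. Without the D5 library 0 genes of the list were higher and 3 lower. Ccl19, Ccl4 and Cxcl9 were not called without D0 either, and Ccl17 was called in 10 of 19 alternatives. Ccl4 and Cxcl9 each turned to the other sign in 1 alternative (up to 0.67 and 0.42), and Cxcl10 was called neither at an XCR1 share of 5% nor by DESeq2 (its smallest difference was -0.60). Ccl22 and Cxcl16 did not pass (0.42 and 0.50).

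Of 9 costimulatory genes tested, 2 were higher and 2 lower (median 0.20), against 0 higher and 2 lower (median -0.04) without scaling beyond the total. Cd70, a ligand of CD27, was at 41.4 CPM at D0, 9.79 at D5 and 25.2 at D19 in XCR1+ mature DCs against 13.3, 8.37 and 11.6 (log2 fold change 1.33, SE 0.36, adjusted p = 0.024), and Cd40 was higher by 0.78 (adjusted p = 0.048). Tnfsf9, which encodes 4-1BB ligand, was lower (-1.18), as was Cd48 (-0.96), a ligand of CD2 family receptors. Cd70 was called in 11 of 18 alternatives and Cd40 in 7 of 19, neither of them without D0, and Cd48 was not called without D5 or D19. The CD28 ligands Cd80 and Cd86 did not pass, with log2 fold changes of -0.51 ± 0.39 and -0.19 ± 0.24 (SE).

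Of 10 regulatory genes tested, 3 were higher and 1 lower (median 0.00), against 2 higher and 3 lower without scaling beyond the total. Aldh1a2, the enzyme that makes retinoic acid, was at 408 CPM at D0, 122 at D5 and 112 at D19 in XCR1+ mature DCs and 88.8, 32.3 and 57.1 in the others (log2 fold change 1.92, SE 0.25, adjusted p = 1.2e-04), a call made in all 19 alternatives. Itgb8, whose integrin activates TGF-β, was at 62.0, 68.5 and 56.0 CPM against 5.62, 6.35 and 28.5 (log2 fold change 2.43, SE 0.43, adjusted p = 0.0013). Pdcd1lg2, which encodes PD-L2, was higher by 1.23, a call made in 10 of 18 alternatives and lost without D0 or D5, while Cd274, which encodes PD-L1, missed the threshold at -0.63 ± 0.21 (SE, adjusted p = 0.062). Socs3, an inhibitor of cytokine signalling, was lower at 5.91, 2.45 and 1.14 CPM against 56.7, 47.3 and 25.8 (-3.67). Ido1 had no UMI in XCR1+ mature DCs and was at 5.62, 4.62 and 0.554 CPM in the others, too low to be tested.

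Of the 15 maturation genes, 4 were higher and 1 lower (median 0.42), and without scaling beyond the total 1 was higher and 3 were lower, so the direction of this list depended on the scaling. With 1 library left out the list had 1 higher and 0 lower without D0, the same counts without D5, and 9 and 1 without D19. Cacnb3, a calcium channel subunit, was the clearest at 378 CPM at D0, 377 at D5 and 377 at D19 in XCR1+ mature DCs against 209, 259.8 and 236 (log2 fold change 0.92, SE 0.17, adjusted p = 0.0019). Tbc1d4, a regulator of vesicle traffic, had a log2 fold change of -0.55 and was not called without D0 or D5, and Relb, Nfkb2, Cd83 and Socs2 did not pass (0.38, 0.43, -0.33 and 0.37).

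Of 12 cholesterol synthesis genes tested, 8 were higher in XCR1+ mature DCs and 0 lower (median 1.14), against 5 of 10 higher (median 0.57) when the comparison was with CD301b+ mature DCs only. Idi1, the isopentenyl diphosphate isomerase, was at 511 CPM at D0, 369 at D5 and 165 at D19 in XCR1+ mature DCs and 157, 143 and 125 in the others (log2 fold change 1.40, SE 0.24, adjusted p = 0.0010). Hmgcs1, Sqle, Fdft1, Fdps, Sc5d and Msmo1 were higher by 1.25, 1.94, 1.59, 1.26, 1.06 and 0.72. Insig1, which restrains the synthesis, did not pass (-0.06). Over the alternatives 1 to 8 genes of the list were higher. Leaving out D0, D5 or D19 gave 7, 6 and 7, and Msmo1 was called in 7 of 18 alternatives. Of 4 efflux genes, Abcg1 was higher by 1.15 and Apoe lower (-2.27), although Apoe was not called without the library block or by DESeq2.

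Interferon response genes showed no common direction, with 2 higher and 2 lower of 11 tested. Oasl1, already named, and Gbp4 (1.21) were higher, Gbp2 (-0.97) and Ifi27l2a (-0.97) lower, and Isg15 and Irf7 did not pass (0.31 and 0.57). Gbp2 was not called without D0, nor Ifi27l2a without D0 or D5. Only Tlr1 and Tlr2 of the microbial sensing genes were tested and neither passed (-0.30 and -0.21). Tlr3, a sensor of double-stranded RNA known in cDC1, was at 8.86, 0 and 10.3 CPM in XCR1+ mature DCs and 116, 30.8 and 360.3 in resident cDC1. Of 3 cell cycle genes tested, Top2a was lower (-1.78, not called without D0 or D5) and none higher.

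**Figure D3:**
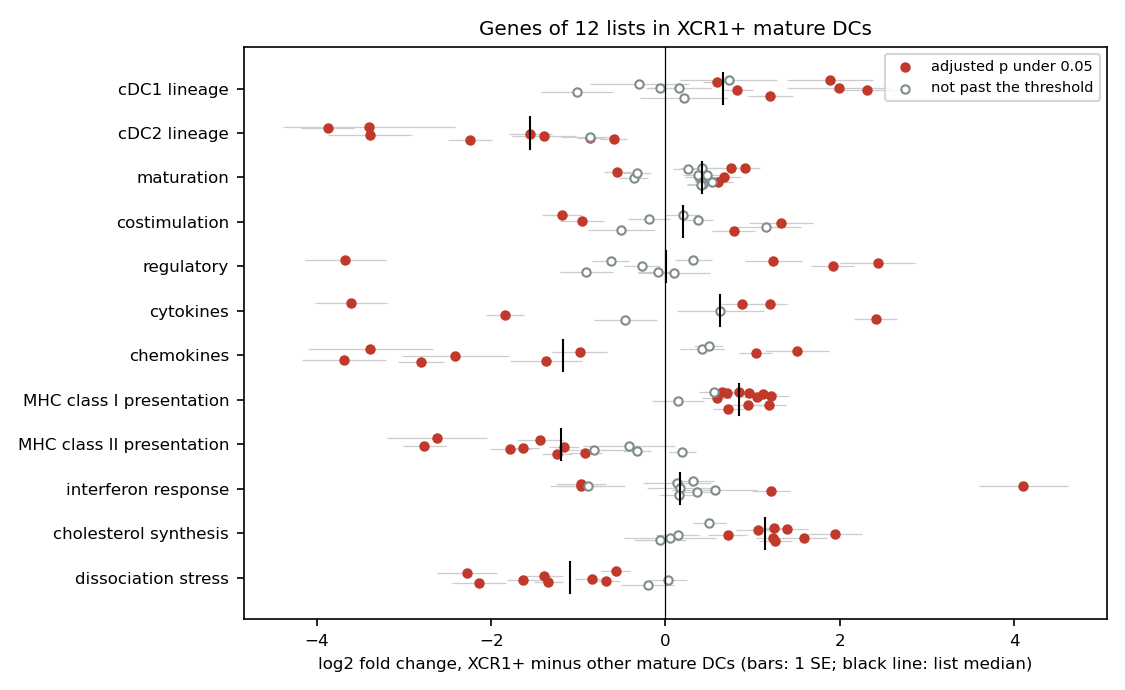
Log2 fold change of XCR1+ minus other mature DCs for the tested genes of 12 lists, with bars of 1 SE and a black line at the median of each list. Filled points passed an adjusted p of 0.05. MHC class I presentation and cholesterol synthesis lie to the right (medians 0.84 and 1.14), and cDC2 lineage, MHC class II presentation and dissociation stress to the left (medians -1.55, -1.20 and -1.09).

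Genes induced by tissue dissociation moved with the comparison. Of 10 tested, 8 were lower in XCR1+ mature DCs and 0 higher (median -1.09), and the summed level of the list was 3791, 2241 and 2437 CPM at D0, D5 and D19 against 10290.2, 5137 and 4545 in the other mature DCs. Fos (-1.63), Jun (-1.34) and Egr1 (-2.28), immediate early transcription factors, were lower in every library. Without D0, D5 or D19 6, 5 and 8 genes of the list were lower, and without the library block 3. The heat shock genes Hspa1a and Hspa1b, near-identical copies whose reads may be split between them, did not pass (0.03 and -0.20).

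Markers of other cell types had lower sums in most libraries, while at D19 the sums of plasmacytoid DC and B cell genes were close to equal. T cell genes summed to 130, 34.3 and 35.5 CPM in XCR1+ mature DCs and 230.3, 114 and 143 in the others (1 of 5 tested lower), and B cell genes to 56.1, 73.4 and 67.5 and 234, 191 and 67.6 (1 of 3). NK cell genes summed to 62.0, 0 and 13.7 and 119, 42.1 and 61.8 CPM (1 of 3 lower, Eomes at 0 in XCR1+ mature DCs). Plasmacytoid DC genes summed to 349, 191 and 317 and 855, 643 and 304 (1 of 6 lower, and 5 of 6 without the D19 library), and the 34 UMIs of Siglech in XCR1+ mature DCs came from 2 of 167 cells at D19. Monocyte and macrophage genes summed to 14.8, 4.89 and 21.7 and 343, 223 and 132 (2 of 2 lower, Adgre1 and Fcgr1 at 0 in XCR1+ mature DCs). Neutrophil and stromal genes were at most 1.14 CPM in any library of XCR1+ mature DCs, with S100a9, Col1a1, Pdgfra, Pecam1 and Cdh5 at 0. None of the genes of these lists passed as higher. Their part in the comparison was not tested. Without the barcodes holding Siglech, T cell or B cell UMIs 455 genes were higher and 381 lower, and 754 of the 1007 calls were made again in the same direction.

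The XCR1+ mature DCs were not uniform in the CD8a share of their tags. A CD8a share of 30% or more, a division made after the values were seen and given without a test, was found in 47 of 64, 21 of 52 and 57 of 167 of them at D0, D5 and D19. B cells, which lack CD8a, reached 30% in 884 of 2302, 1108 of 3470 and 357 of 2156 cells at a lower tag depth. Free tags were 36.9%, 24.2% and 22.1% CD8a. Whether the threshold divides cells with CD8a from cells without it was not tested. The XCR1+ mature DCs at or above 30% had lower median XCR1 shares than the rest (17.4%, 22.1% and 17.1% against 29.7%, 24.4% and 28.3%), tags sharing 1 total. Cd8a RNA was at 35.1, 17.7 and 0 CPM in them and 0, 0 and 4.89 in the rest. Aldh1a2 was at 500.2, 212 and 237 CPM in the cells at or above 30% and 217, 58.5 and 58.7 in the rest. Its counting intervals were apart on each day. Il12b ran in no constant order, at 154, 171 and 264 CPM against 904, 54.3 and 382, and the single cell that held most Il12b UMIs at D0 lay among the rest.

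Between days the XCR1+ mature DCs were compared by differences of log2(CPM + 10), counting genes with at least 10 UMIs over both days and calling a difference of 1 or more. With 1 library per day this is a description of these libraries, and both comparisons share D0. At D5 against D0, 309 of 5090 genes were higher (6.07%) and 151 were lower (2.97%), with a median difference of 0.06. At D19 against D0, 613 of 6606 genes were higher (9.28%) and 203 lower (3.07%), with a median of 0.14. The corresponding medians in the other mature DCs, over the same genes, were 0.02 and -0.02. The 10 UMIs were counted over both days together, and XCR1+ mature DCs held 338457, 408752 and 874282 UMIs at D0, D5 and D19. A gene found only at the later day thus entered at a lower CPM than one found only at D0, most of all at D19. The numbers of higher and lower genes, and the medians, therefore depend in part on this filter and give no balance of directions. Of 6 plasmacytoid DC genes counted, 4 were higher and 0 lower at D19 than at D0 in XCR1+ mature DCs (median 1.34). Their median in the other mature DCs was -1.71. The rises in XCR1+ mature DCs rested in part on single cells, and the Siglech UMIs, as given above, came from few cells. Without the highest cell of each day Cox6a2 at D19 went from 12.6 to 2.32 CPM, with a difference of 0.30. Ccr9 went from 25.2 to 13.9 CPM, with a difference of 1.26.

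Cd74 was among the class II genes that differed between days. Its level in XCR1+ mature DCs was at 9283 CPM at D0, 4345 at D5 and 2411 at D19 (differences of -1.09 and -1.94), and in the other mature DCs at 15087, 12104 and 5859. H2-Ab1 differed by -0.96 at D5 and -1.25 at D19, and without the highest cell of each day by -1.05 and -0.93, so which day passed a difference of 1 rested on single cells. Over the list 0 of 10 and 0 of 12 genes were higher and 1 and 3 lower, with medians of -0.40 and -0.56 in XCR1+ mature DCs and -0.16 and -1.42 in the others. Cd74 and H2-Ab1 thus stood lower at both later days than at D0 in each group of mature DCs. The class I list had 0 higher and 0 lower of 13 on both days (medians -0.03 and -0.40), and some class I genes stood above the other mature DCs at D0 already. Psmb9, for example, was at 925, 731 and 467 CPM in XCR1+ mature DCs and 473, 481 and 387 in the others.

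Hspa1a in XCR1+ mature DCs fell from 677 CPM at D0 to 188 at D5 and 4.58 at D19, past the difference of 1 each time, and stood at 996, 166 and 6.65 in the other mature DCs. Ptgs2, the inducible cyclooxygenase, was at 189, 41.6 and 19.4 CPM in XCR1+ mature DCs and 294, 126 and 80 in the others. Hist1h2bc, a histone gene, was at 425, 80.7 and 54.9 CPM. These 3 genes were lowest at D19 and the first 2 of them in both groups. Of the stress list 4 of 9 genes were lower at D5 and 3 of 10 at D19, with 1 higher.

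Other falls in XCR1+ mature DCs included Aldh1a2, at 408 CPM at D0, 122 at D5 and 112 at D19, and Procr, the protein C receptor, at 79.8, 4.89 and 10.3 CPM. Aldh1a2 lay above the other mature DCs on each day nonetheless. Apol7c, an apolipoprotein of mature DCs, was at 2650.3, 1744 and 671 CPM and Il4i1, an amino acid oxidase, at 1232, 1010.4 and 486, both lowest at D19. Higher at the later days were Il15ra (94.5, 220.2 and 288 CPM), Tbc1d4 (1046, 1617 and 2791) and Pdcd4, an inhibitor of translation (44.3, 78.3 and 317 CPM, against 134, 172 and 486 in the other mature DCs). S100a4 (121, 927 and 393), Nav1 (5.91, 66.1 and 52.6), Lrp8 (0, 41.6 and 14.9) and Mettl26 (0, 44.0 and 20.6) had the largest rises at D5 beside Olfr655, and Cdk5r1, an activator of CDK5, rose from 0 to 49.2 CPM at D19.

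Several of the largest differences between days rested on single cells. All 22 UMIs of Olfr655 at D5 came from 1 XCR1+ mature DC. Nkg7, a granule protein of cytotoxic lymphocytes, was at 62.0, 0 and 1.14 CPM with 95.2% of its D0 UMIs in 1 cell, and its D5 difference of -2.85 shrank to -0.39 without the highest cell of each day. The differences at D5 of Gimap4 (-2.36) and Cd7 (-2.34) shrank to -0.70 and -0.39 in the same way. At D19 the haemoglobin genes Hba-a1, Hba-a2 and Hbb-bs were highest, at 971, 637 and 1233 CPM, and 1 cell held 96.8% of the Hba-a1 and 94.2% of the Hbb-bs UMIs. Without the highest cells their differences of 5.95, 4.89 and 3.89 became 1.66, 0.88 and 0.66. Haemoglobin RNA was also abundant in empty barcodes, at 5979, 3928 and 15681 CPM of Hbb-bs. Ccl4 was at 142, 0 and 45.8 CPM, with no UMI at D5. Without the highest cell of each day it was at 62.1 CPM at D0 and 22.1 at D19, and its D5 difference was -2.85.

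**Figure D4:**
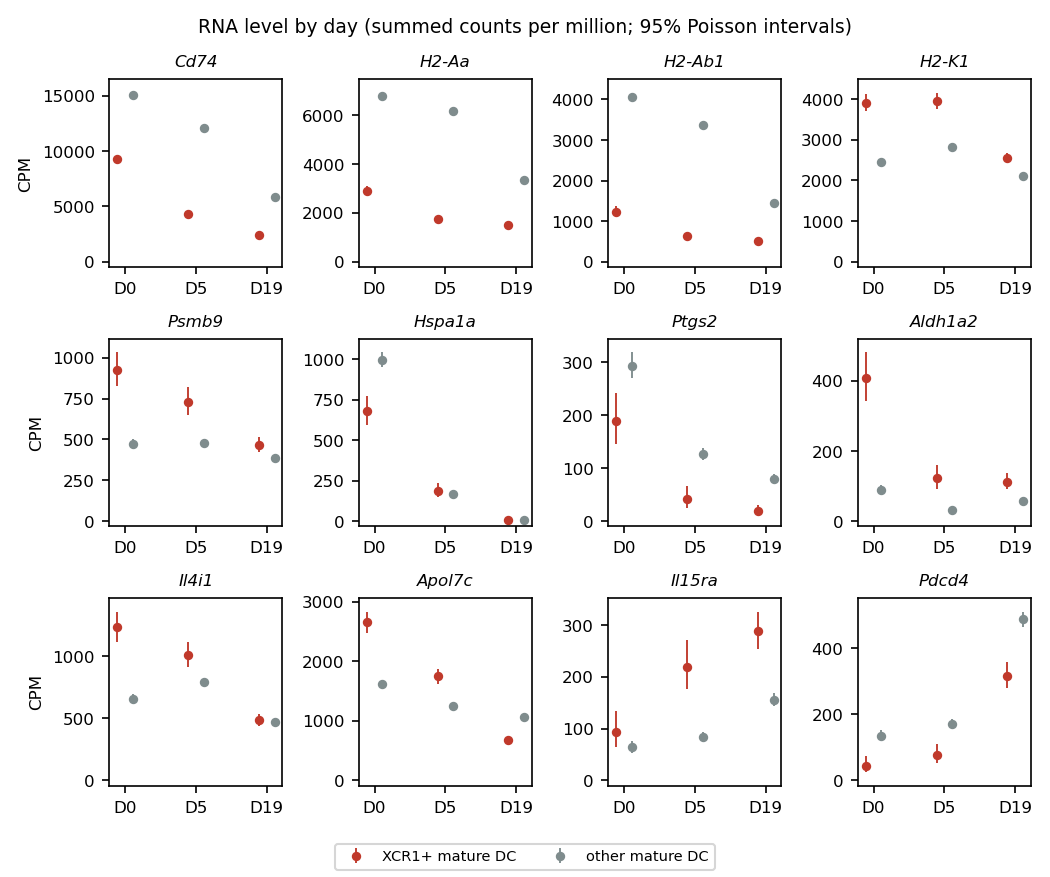
RNA level of 12 genes in CPM with 95% Poisson intervals at D0, D5 and D19 in XCR1+ and other mature DCs (1 library per day). Cd74 in XCR1+ mature DCs goes from 9283 to 2411 CPM and Hspa1a from 677 to 4.58, whereas Pdcd4 goes from 44.3 to 317.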

How the data were processed

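Per the labels and the study's methods, the authors aligned reads to mm10 with Cell Ranger (version 4 in the deposited file headers, whereas the study's supplement names a later version) and deposited unfiltered counts of UMIs per gene and antibody tag. Coordinates are RefSeq's for GRCm38.p6, the assembly of mm10. Cells, groups and thresholds were as described in the report. Doublets were not removed, and removal of the highest Scrublet scores (0.8% per 1000 cells, scanpy 1.11.5) was an alternative. UMIs were summed per library and group and tested with edgeR 4.0.16 (TMM, filterByExpr, library block, Benjamini-Hochberg over 7521 genes) in R 4.3.3. Ccr7, Fscn1, Cd3e and Cd79a were left out of the calls. The script was tested on simulated data. Named genes were the 10 largest rises and 10 largest falls with an adjusted p under 0.05, the same direction in 3 libraries and at least 20 CPM in the higher group, and between days the 5 largest each way with Poisson intervals apart. Other genes come from the lists or were picked after their values were seen. Free RNA and tags were taken from barcodes with 10 to 100 RNA UMIs. The cells and lists were chosen with earlier results of these data known. Mx1, Mx2 and Clec7a were not analysed here, and some genes counted in the lists are not reported here by name. p-values measure the spread between 3 libraries.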

Additional observations from a re-analysis of the deposited data

How the results depend on the processing

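At an XCR1 share of 5% the XCR1+ share of mature DCs was 16% at D5 and 21.9% at D19, and at 20% it was 11.8%, 7.24% and 11.9% at D0, D5 and D19. Without the replicate block (no library term) 218 genes were higher and 164 lower in XCR1+ than in other mature DCs, so the counts rest on the pairing of both groups within a library. With no scaling beyond the total there were 346 and 822, against CD301b+ mature DCs only 298 and 276 (of 3810 tested), and with every cell thinned to 1000 UMIs 112 and 132 (of 2311 tested). DESeq2 called 373 higher and 234 lower. With 1 library left out, counts ran from 273 (without D5) to 657 (without D19) higher and from 260 (without D0) to 643 (without D19) lower. None of the 1007 genes called was called in the opposite direction under any of these alternatives. Between days, a pseudocount of 1 CPM gave 599 genes higher and 326 lower at D5 and 1250 and 458 at D19, and at least 30 UMIs gave 98 and 51 at D5 and 286 and 123 at D19. The difference of Cd7 at D5 turned to 0.39 without barcodes holding Siglech, T or B cell UMIs, and that of Hbb-bs at D19 to -0.58 at an XCR1 share of 20%. The causes were not tested. Leaving out those barcodes, the comparison with CD11b+ mature DCs and leaving out the highest cell were chosen after seeing the data. Depth is a limit as well, since 52 to 167 cells and 338457 to 874282 UMIs a day leave wide counting intervals for genes with few UMIs.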
